A study of Mus musculus with 9 samples.

Results

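The genes described are 8 receptors of myeloid cells, grouped under retention in the bone marrow and exit from it, which is not the known role of each. The 8 are Cxcr2, Cxcr4, Ccr1, Ccr2, Cx3cr1, Fpr1, Fpr2 and C5ar1. They were chosen by symbol and are 8 of the 23337 genes with counts in each library. All 8 passed the filter on low counts, as did 12553 genes in all, and these 12553 are called the tested genes.

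CD11b+ cells, the myeloid cells of the marrow, were isolated with magnetic beads from the femurs and tibias of 9 male C57BL/6 mice, 3 in each of 3 groups, whose age is given as 3 to 6 weeks in the methods of the study. Control mice received 100 µl of PBS into the tail vein on days 1, 3 and 5. Mice of the EnzR EV group, which the labels call EnzR exosome, received on the same days 10 µg of extracellular vesicle protein from CWR-R1 cells, a human prostate cancer line made resistant to the androgen receptor inhibitor enzalutamide. Mice of the EnzR EV + HDL NP group received the same vesicles and, on days 0, 2 and 4, HDL NPs, which are gold-core particles with apolipoprotein A-I and phospholipids that mimic high-density lipoprotein. For the HDL NPs the labels give 1 µM and the methods 100 µM. Bones were taken 24 h after the last dose, and 1 library per mouse of rRNA-depleted, stranded total RNA was sequenced. As no mice received HDL NPs without vesicles, an action of the particles themselves and an action on the response to vesicles cannot be told apart.

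All 8 genes encode receptors with a bundle of membrane-spanning helices that signal through inhibitory G proteins when a chemoattractant binds. Cxcr4 on marrow neutrophils and progenitors binds Cxcl12 from stromal cells and holds the cells in the marrow, whereas Cxcr2 binds chemokines that draw mature neutrophils into the blood. Ccr2 drives the exit of inflammatory monocytes from the marrow, Cx3cr1 marks patrolling monocytes and tissue macrophages, and Ccr1, Fpr1, Fpr2 and C5ar1 sense inflammatory chemokines, formylated peptides and complement fragment C5a.

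Levels are given as CPM, counts scaled to a common library total with TMM factors, which correct for differences in library composition. The total counts were 6006087, 16381679 and 15972757 in PBS mice 1 to 3, 2575776, 18110561 and 8554487 in EnzR EV mice 1 to 3, and 15602936, 16611934 and 13231038 in EnzR EV + HDL NP mice 1 to 3. Mice are named by the number in their label, and p-values describe the spread between these mice.

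Before any comparison, 3 libraries stood apart. Rn45s, the precursor of ribosomal RNA, which depletion should remove, took 20.3% of the counts in PBS 1, 42.7% in EnzR EV 1 and 14.2% in EnzR EV 3. In the other 6 libraries it took between 0.657% and 2.87%. The same 3 libraries had the lowest totals, between 2575776 and 8554487, against 13231038 to 18110561 in the other 6. Since 2 of the 3 belong to the EnzR EV group and none to the EnzR EV + HDL NP group, the comparisons of the 8 receptor genes are also given without them, a setting chosen after seeing the data. For the other genes only the number called is given in that setting, and the lists were not compared in it. The EnzR EV group then holds only mouse 2, which is assumed to vary like the mice of the other groups.

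The cells carried the genes of the CD11b+ selection. Itgam, which encodes CD11b, lay between 1389 and 2006 CPM in the 9 libraries, and its partner Itgb2 between 1177 and 2070. Lyz2, the lysozyme of myeloid cells, was the most abundant of 7 myeloid genes, between 3702 CPM in EnzR EV 1 and 10931 CPM in EnzR EV + HDL NP 2.

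No receptor gene passed the test in any comparison. The quasi-likelihood test of edgeR, adjusted over all tested genes, called 0 of the 8 at an adjusted p under 0.05 in EnzR EVs against PBS, in EnzR EVs with HDL NPs against PBS and in EnzR EVs with HDL NPs against EnzR EVs. It called 0% of the tested genes in each of these comparisons as well. At an unadjusted p under 0.05, it found 1 of the 8 in EnzR EVs against PBS, beside 3.47% of the tested genes. In EnzR EVs with HDL NPs against PBS it found 0 of the 8, beside 2.13%, and in EnzR EVs with HDL NPs against EnzR EVs 0 of the 8, beside 10.6%. The values of the mice did not overlap between the groups for 1 receptor gene in EnzR EVs against PBS, beside 7.96% of the tested genes. They did not overlap for 0, beside 13.2%, in EnzR EVs with HDL NPs against PBS, and for 1, beside 17.6%, in EnzR EVs with HDL NPs against EnzR EVs. In both comparisons that gene was Cx3cr1.

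Other tools gave the same count of receptor genes with 1 exception. DESeq2 called 8, 7 and 1 genes in the comparisons in that order, and 0 receptor genes. Limma voom called 0 genes, and voom with sample quality weights, which lowers the weight of libraries that vary more, called 1990, 10 and 653. The 1990 genes in EnzR EVs against PBS were 15.9% of the tested genes, and 3 of the 8 receptor genes were among them, with log2 fold changes of -0.65 for Cx3cr1 (adjusted p = 0.0146 by limma), -1.28 for Fpr1 (adjusted p = 0.0284 by limma) and 0.70 for C5ar1 (adjusted p = 0.027 by limma). Without the 3 libraries that stood apart edgeR called 10, 0 and 1 genes, and 0 receptor genes. With the replicate number as a block, edgeR called 1 gene in EnzR EVs against PBS in place of 0, and 0 receptor genes.

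**Figure D1:**
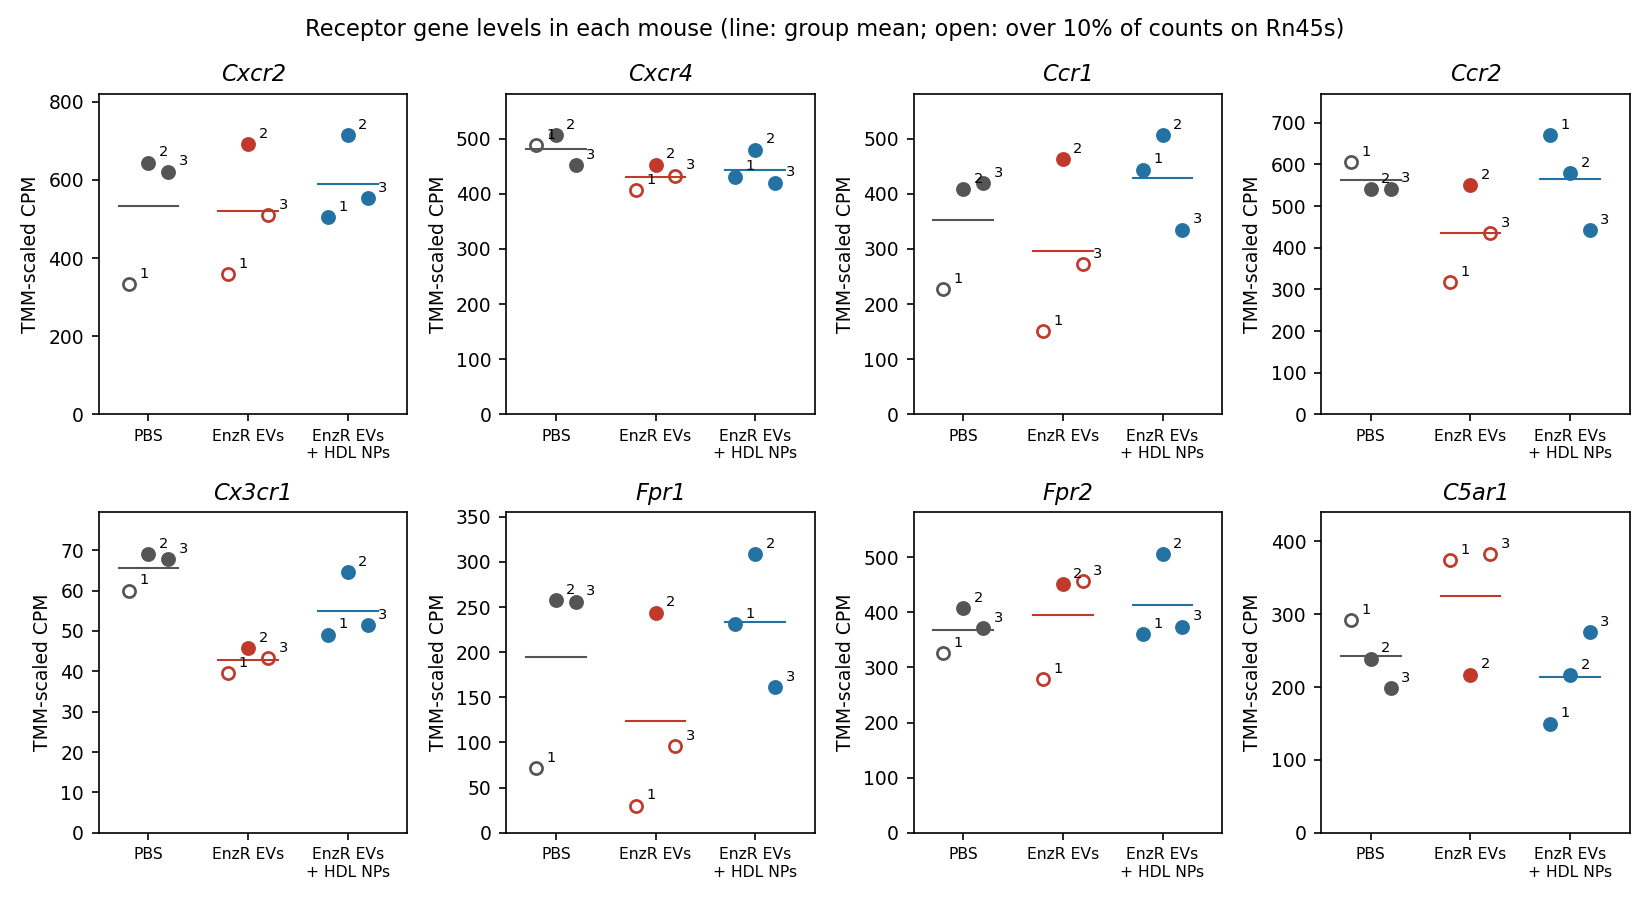
TMM-scaled CPM of each receptor gene (vertical axes, starting at 0) in each mouse, by group, with the group mean as a line. Numbers name the mice, and open symbols mark the 3 libraries with over 10% of counts on Rn45s. For Cx3cr1 the 3 EnzR EV mice lie between 39.5 and 45.8 CPM, below the 3 PBS mice at 60 to 69.1, whereas for Fpr1 the 3 open symbols lie at 30.2 to 95.6 CPM, below the 6 filled ones at 161 to 309.

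Cxcr4, the retention receptor, was the steadiest of the 8. Its level was 488, 506 and 452 CPM in PBS mice 1 to 3, 407, 453 and 433 CPM in EnzR EV mice 1 to 3, and 431, 480 and 420 CPM in EnzR EV + HDL NP mice 1 to 3. PBS 2 was highest and EnzR EV 1 lowest, a ratio of 1.25, and the groups overlapped. The group means were 482 ± 27.6 CPM for PBS, 431 ± 23.4 CPM for EnzR EVs and 444 ± 31.7 CPM for EnzR EVs with HDL NPs (SD, n = 3 mice each). The SD of its log2 CPM over the 9 libraries was 0.11, and 98.6% of the tested genes had a larger one. The log2 fold change was -0.16 in EnzR EVs against PBS (95% interval -0.48 to 0.16, adjusted p = 0.928 by edgeR), so that a fall by more than 0.48 on the log2 scale lies outside that interval. It was -0.08 without the 3 libraries that stood apart, and -0.33 when scaled by library totals only, without TMM factors. That scaling gave 0.27 for Cxcr4 in EnzR EVs with HDL NPs against EnzR EVs, beside 0.04 with TMM factors.

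Cxcr2, the release receptor of mature neutrophils, varied more. It was measured at 333, 644 and 621 CPM in PBS mice, 359, 692 and 509 CPM in EnzR EV mice and 504, 714 and 554 CPM in EnzR EV + HDL NP mice, in the order of their numbers. The lowest values were those of PBS 1 and EnzR EV 1, the libraries with the largest Rn45s shares, and the groups overlapped. The log2 fold change was -0.03 in EnzR EVs against PBS (95% interval -0.69 to 0.62), 0.15 in EnzR EVs with HDL NPs against PBS (-0.51 to 0.80) and 0.18 in EnzR EVs with HDL NPs against EnzR EVs (-0.48 to 0.84). Without the 3 libraries that stood apart these became 0.13, -0.10 and -0.23, so none of the directions held.

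The ratio of Cxcr2 to Cxcr4 counts sets release against retention within each library, where scaling plays no part. On the log2 scale it was -0.55, 0.35 and 0.46 in PBS mice, -0.18, 0.61 and 0.23 in EnzR EV mice and 0.22, 0.57 and 0.40 in EnzR EV + HDL NP mice, as a description without a test. Counts on Cxcr4 exceeded those on Cxcr2 only in PBS 1 and EnzR EV 1, and the groups overlapped. The ratio compares counts and not molecules, since the exons of Cxcr2 are longer.

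Cx3cr1, the fractalkine receptor of patrolling monocytes and macrophages, was the receptor gene whose groups separated. It was measured at 60, 69.1 and 67.7 CPM in PBS mice, 39.5, 45.8 and 43.2 CPM in EnzR EV mice and 49.1, 64.5 and 51.5 CPM in EnzR EV + HDL NP mice. The 3 EnzR EV values were the lowest of all 9, while the PBS and EnzR EV + HDL NP mice overlapped. The means were 65.6 ± 4.91 CPM, 42.8 ± 3.17 CPM and 55 ± 8.27 CPM (SD, n = 3 mice each).

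For Cx3cr1, EnzR EVs against PBS gave -0.61 on the log2 scale, with a standard error of 0.17, or 0.655 times the control level (95% interval 0.508 to 0.845 times). Its unadjusted p of 0.0039 was the 27th smallest of 12553, and the adjusted p was 0.928 by edgeR. The two-sided exact permutation test gave p = 0.1, the smallest that 3 mice against 3 can give. EnzR EVs with HDL NPs against EnzR EVs gave a log2 fold change of 0.36 (95% interval -0.01 to 0.72, adjusted p = 0.461 by edgeR, exact permutation p = 0.1). Against PBS the same mice gave -0.26 (95% interval -0.62 to 0.11, adjusted p = 1 by edgeR).

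The 3 comparisons share groups, so their values for Cx3cr1 are not independent. Without the 3 libraries that stood apart the log2 fold changes were -0.57, 0.26 and -0.31 in the order just given. Leaving out 1 library at a time gave 0.20 (without EnzR EV + HDL NP 2) to 0.42 in EnzR EVs with HDL NPs against EnzR EVs. For EnzR EVs with HDL NPs against PBS it gave -0.39 to -0.17. Scaling by library totals only gave 0.57 in EnzR EVs with HDL NPs against EnzR EVs. In every alternative run, Cx3cr1 was lower in EnzR EVs than in PBS, by -0.78 to -0.55 on the log2 scale. EnzR EV 1 had 72 counts on Cx3cr1, which allows 30.9 to 49.8 CPM by an exact Poisson interval for counting error alone. In such bulk samples fewer cells of a type and less RNA per cell cannot be told apart.

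Genes of the cells that carry Cx3cr1 did not form a single picture. Of 10 macrophage genes, 9 were lower in EnzR EVs than in PBS, with a median log2 fold change of -0.75 beside -0.03 for all tested genes. At an unadjusted p under 0.05 edgeR found 5 of the 10 lower and 0 higher, and 0 passed after adjustment. The summed level of the list was 762, 980 and 1446 CPM in PBS mice, 761, 765 and 642 CPM in EnzR EV mice and 929, 749 and 725 CPM in EnzR EV + HDL NP mice, with Vcam1 the most abundant gene and no gene at 0 in every library. Of 7 genes of nonclassical monocytes, 5 had higher and 2 lower values in EnzR EVs, and their median was 0.06. Among the lower was Nr4a1, at 50.5, 45.9 and 44.6 CPM in EnzR EV mice and 59.7, 61.3 and 57.6 CPM in PBS mice, without overlap. That list summed to 844, 801 and 750 CPM in PBS mice, 944, 814 and 953 CPM in EnzR EV mice and 758, 807 and 900 CPM in EnzR EV + HDL NP mice, led by Itgal, which other leukocytes also express. In EnzR EV 1, however, Spn led the list at 544 CPM, and Itgal was at its lowest of the 9 libraries, at 295 CPM. The part of either cell type in the Cx3cr1 difference was not tested.

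Ccr2, the receptor that releases inflammatory monocytes from the marrow, stood at 605, 540 and 542 CPM in PBS mice, 318, 550 and 435 CPM in EnzR EV mice and 670, 580 and 443 CPM in EnzR EV + HDL NP mice. EnzR EV 1 was lowest, EnzR EV + HDL NP 1 highest, and the groups overlapped. The log2 fold change was -0.37 in EnzR EVs against PBS (95% interval -0.87 to 0.13, adjusted p = 0.928 by edgeR) and 0.38 in EnzR EVs with HDL NPs against EnzR EVs (-0.12 to 0.87, adjusted p = 0.49 by edgeR). Without the 3 libraries that stood apart these were 0.03 and 0.03.

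Classical monocyte genes were measured beside it. The 10 genes of that list summed to 2327, 2146 and 2054 CPM in PBS mice, 1582, 2441 and 1870 CPM in EnzR EV mice and 2563, 2116 and 1856 CPM in EnzR EV + HDL NP mice, with F13a1 the most abundant. The list was lowest in EnzR EV 1 and highest in EnzR EV + HDL NP 1, the mice at the ends of the range of Ccr2, and its part in the Ccr2 values was not tested.

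The ratio of Ccr2 to Cx3cr1 counts, another description without a test, was 10.1, 7.81 and 8.01 in PBS mice, 8.04, 12 and 10.1 in EnzR EV mice and 13.6, 9 and 8.61 in EnzR EV + HDL NP mice. Ccr2 thus had at least 7.81 times the counts of Cx3cr1 in every library, and the groups overlapped.

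**Figure D2:**
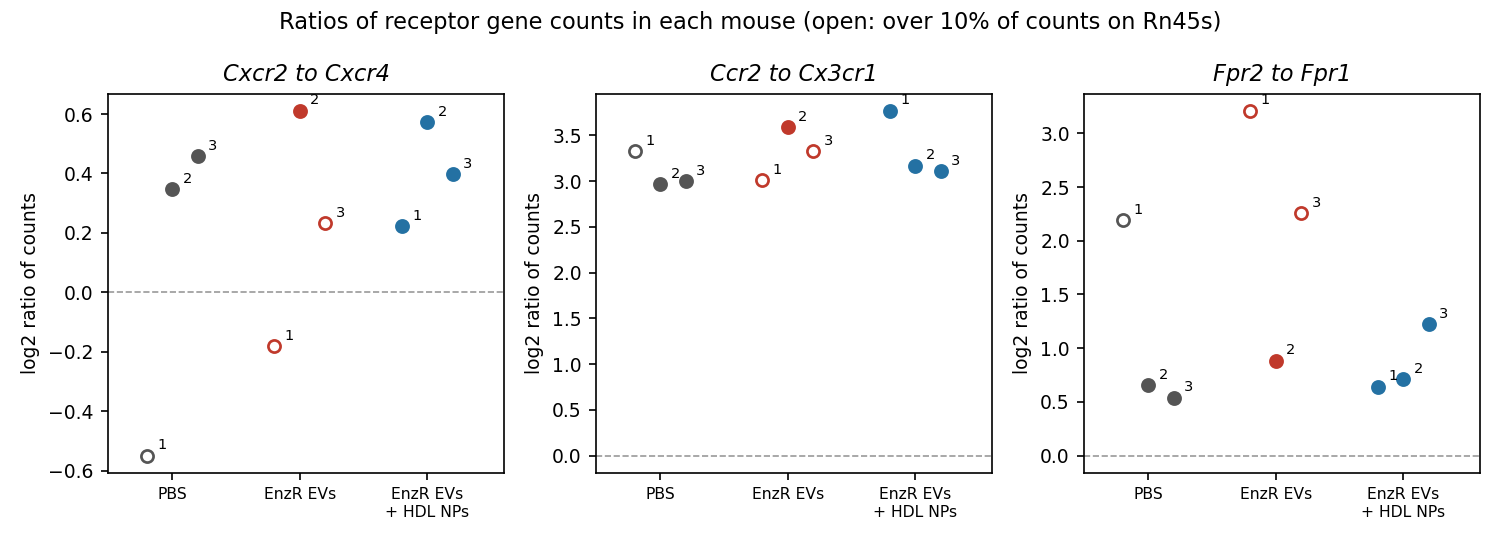
Log2 ratio of the counts of 2 receptor genes (vertical axes) in each mouse, by group, with the dashed line at equal counts. Numbers name the mice and open symbols mark the 3 libraries with over 10% of counts on Rn45s. The Fpr2 to Fpr1 ratio is 2.19 to 3.21 in the open symbols and 0.54 to 1.22 in the others.

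Fpr1, a receptor for formylated peptides from bacteria and damaged mitochondria, varied most among the 8. It was measured at 71.5, 258 and 256 CPM in PBS mice, 30.2, 244 and 95.6 CPM in EnzR EV mice and 231, 309 and 161 CPM in EnzR EV + HDL NP mice. The 3 lowest values were those of PBS 1, EnzR EV 1 and EnzR EV 3, the libraries with over 10% of counts on Rn45s, and the groups overlapped. The highest value was 10.3 times the lowest, and the SD of log2 CPM was 1.12, which 4.74% of the tested genes exceeded. EnzR EV 1 had 55 counts on Fpr1, which allows 22.7 to 39.3 CPM by the exact Poisson interval.

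The Fpr1 difference between EnzR EVs and PBS, -0.64 on the log2 scale, had a 95% interval of -2.05 to 0.77 (adjusted p = 0.928 by edgeR, exact permutation p = 0.5), both without pairing. Of the 8 receptor genes Fpr1, Cxcr4 and Cx3cr1 were lower in the EnzR EV mouse than in the PBS mouse of the same number in all 3 pairs. The share of all tested genes with such an order was not counted, and the fit with the number as a block called none of the 8. For Fpr1 the mice numbered 2 were close, at 244 CPM beside 258 CPM, and EnzR EV 1 and EnzR EV 3 are libraries that stood apart. EnzR EVs with HDL NPs against EnzR EVs gave 0.90 (-0.52 to 2.31, adjusted p = 0.541 by edgeR). Without the 3 libraries that stood apart these values were -0.07 and -0.07. Leaving out 1 library at a time gave -1.56 (without EnzR EV 2, unadjusted p = 0.0195 by edgeR) to -0.20 (without EnzR EV 1) in EnzR EVs against PBS, and 0.45 (without EnzR EV 1) to 1.82 (without EnzR EV 2, adjusted p = 0.0915 by edgeR) in EnzR EVs with HDL NPs against EnzR EVs, with 0 calls of Fpr1. Within the other 6 libraries Fpr1 ranged over 1.92 times, from 161 to 309 CPM. The lowest of these was EnzR EV + HDL NP 3, which also had the largest Rn45s share of the 6, at 2.87%.

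Ccr1, a receptor for inflammatory CC chemokines such as Ccl3, Ccl5, Ccl6 and Ccl9, followed the same libraries. Its level was 227, 409 and 419 CPM in PBS mice, 151, 463 and 273 CPM in EnzR EV mice and 444, 506 and 335 CPM in EnzR EV + HDL NP mice. PBS 1, EnzR EV 1 and EnzR EV 3 lay at 151 to 273 CPM, and the other 6 libraries at 335 to 506 CPM. The log2 fold change was -0.24 in EnzR EVs against PBS (95% interval -1.06 to 0.58) and 0.53 in EnzR EVs with HDL NPs against EnzR EVs (-0.29 to 1.35), and without the 3 libraries it was 0.17 and -0.12.

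C5ar1, the receptor for complement fragment C5a, went the other way. It stood at 292, 239 and 199 CPM in PBS mice, 374, 217 and 383 CPM in EnzR EV mice and 150, 216 and 275 CPM in EnzR EV + HDL NP mice. PBS 1, EnzR EV 1 and EnzR EV 3 were the 3 highest, at 292 to 383 CPM, against 150 to 275 CPM in the other 6 libraries, and the groups overlapped. The log2 fold change was 0.41 in EnzR EVs against PBS (95% interval -0.20 to 1.03, adjusted p = 0.928 by edgeR). It was -0.60 in EnzR EVs with HDL NPs against EnzR EVs (-1.21 to 0.01, adjusted p = 0.461 by edgeR, exact permutation p = 0.2). Without the 3 libraries both values were near 0, at -0.01 and -0.03.

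The part of the Rn45s share, and of the lower totals that go with it, in the values of Fpr1, Ccr1 and C5ar1 was not tested. With Rn45s left out of the totals the log2 fold change in EnzR EVs against PBS was -0.63 for Fpr1, -0.23 for Ccr1 and 0.43 for C5ar1, beside -0.64, -0.24 and 0.41 with it.

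**Figure D3:**
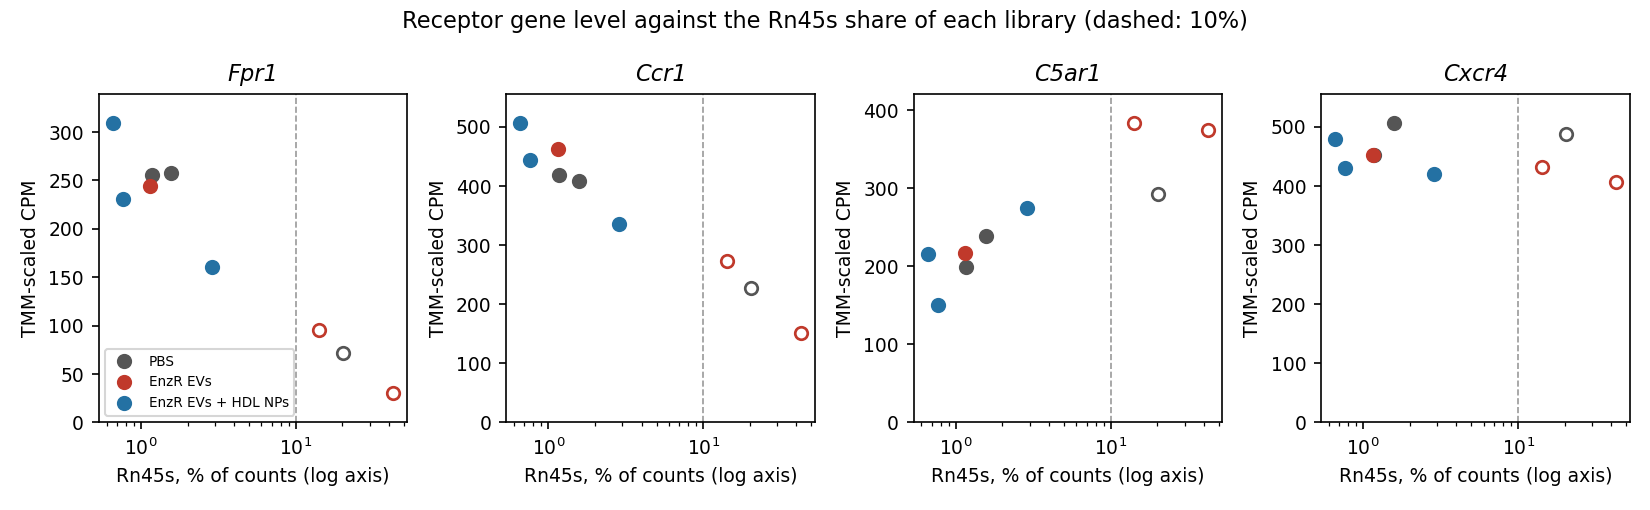
TMM-scaled CPM of Fpr1, Ccr1, C5ar1 and Cxcr4 (vertical axes, starting at 0) against the share of counts on Rn45s (horizontal axes, log scale) in the 9 libraries, coloured by group. Right of the dashed line at 10% are PBS 1, EnzR EV 1 and EnzR EV 3, where Fpr1 and Ccr1 are below and C5ar1 above all other libraries, while Cxcr4 is between 407 and 506 CPM on both sides.

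Fpr2, the second formyl peptide receptor, which also binds annexin A1 and serum amyloid A, did not share the pattern of Fpr1. It was measured at 326, 407 and 371 CPM in PBS mice, 279, 451 and 457 CPM in EnzR EV mice and 360, 506 and 374 CPM in EnzR EV + HDL NP mice. EnzR EV 1 was lowest, but EnzR EV 3, where Fpr1 was low, had the second highest value, and the groups overlapped. The log2 fold changes were 0.11, 0.17 and 0.06 in EnzR EVs against PBS, EnzR EVs with HDL NPs against PBS and EnzR EVs with HDL NPs against EnzR EVs, with adjusted p of 0.95, 1 and 0.907 by edgeR. They were 0.22, 0.09 and -0.13 without the 3 libraries that stood apart.

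The Fpr2 to Fpr1 ratio, chosen after the values were seen, was 4.57, 1.58 and 1.45 in PBS mice, 9.24, 1.85 and 4.78 in EnzR EV mice and 1.56, 1.64 and 2.33 in EnzR EV + HDL NP mice. Its 3 highest values were those of PBS 1, EnzR EV 1 and EnzR EV 3. The ratio was also higher in the EnzR EV mouse than in the PBS mouse of the same number in all 3 pairs, which was not tested. The receptors are neighbours in the genome, with RefSeq starts 3885 bases apart on opposite strands of chromosome 17. Fpr2 has close relatives in the same cluster, and how reads that fit several of them were counted was not tested. The strand setting of the counting is not given either, so whether reads from the opposite strand entered the counts cannot be told.

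The genes lie on 4 chromosomes of the mouse assembly GRCm38. Cxcr2 spans chr1:74153994-74161246 and Cxcr4 chr1:128588199-128592299. Cx3cr1 at chr9:120048683-120068296, Ccr1 at chr9:123962126-123968692 and Ccr2 at chr9:124101918-124109140 lie on chromosome 9. Fpr1 spans chr17:17876471-17883939, Fpr2 chr17:17887824-17893952 and C5ar1 chr7:16246743-16259540.

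The 250 bases before the RefSeq start (build GRCm38.p6, all 8 genes matched) are shown for the pair that was low in the same libraries, Fpr1 and Ccr1, and for the steadiest gene, Cxcr4, chosen after the values were seen. They are chr17:17883940-17884189, chr9:123968693-123968942 and chr1:128592300-128592549, all written from the minus strand. Capitals mark GAGGAA, a core bound by the myeloid factor PU.1, and TATAAA, where a TATA-binding protein can sit, each searched on both strands with overlaps between matches allowed.
Fpr1: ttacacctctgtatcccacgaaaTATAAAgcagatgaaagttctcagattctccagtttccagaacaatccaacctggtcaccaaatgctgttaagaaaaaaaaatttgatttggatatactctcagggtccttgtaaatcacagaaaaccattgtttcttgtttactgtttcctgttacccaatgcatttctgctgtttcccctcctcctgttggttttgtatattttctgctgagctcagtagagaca
Ccr1: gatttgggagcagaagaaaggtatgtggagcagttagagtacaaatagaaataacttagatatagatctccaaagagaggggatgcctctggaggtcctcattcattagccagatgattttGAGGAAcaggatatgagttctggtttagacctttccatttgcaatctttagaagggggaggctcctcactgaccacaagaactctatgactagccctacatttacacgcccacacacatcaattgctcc
Cxcr4: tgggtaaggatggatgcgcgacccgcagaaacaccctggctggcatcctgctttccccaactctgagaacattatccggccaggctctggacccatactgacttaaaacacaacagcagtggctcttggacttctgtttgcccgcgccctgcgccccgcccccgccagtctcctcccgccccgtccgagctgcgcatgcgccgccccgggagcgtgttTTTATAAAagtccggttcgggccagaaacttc

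Fpr1 holds 0 matches to GAGGAA and 1 to TATAAA, Ccr1 holds 1 and 0, and Cxcr4 holds 0 and 2, which overlap. Of the 8 receptor genes, 3 have GAGGAA and 3 have TATAAA in this window, beside 23.3% and 12.4% of 32851 promoters of the same length. For Ccr2 and C5ar1 the start used here lies inside the span given above. Their windows, chr9:124101933-124102182 and chr7:16259339-16259588, therefore overlap that span. The CpG count sets Cxcr4 apart, with 19 CpG in 250 bases against 1 in Fpr1 and 1 in Ccr1, where the median promoter has 6. A match is a description of letters and not a site.

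**Figure D4:**
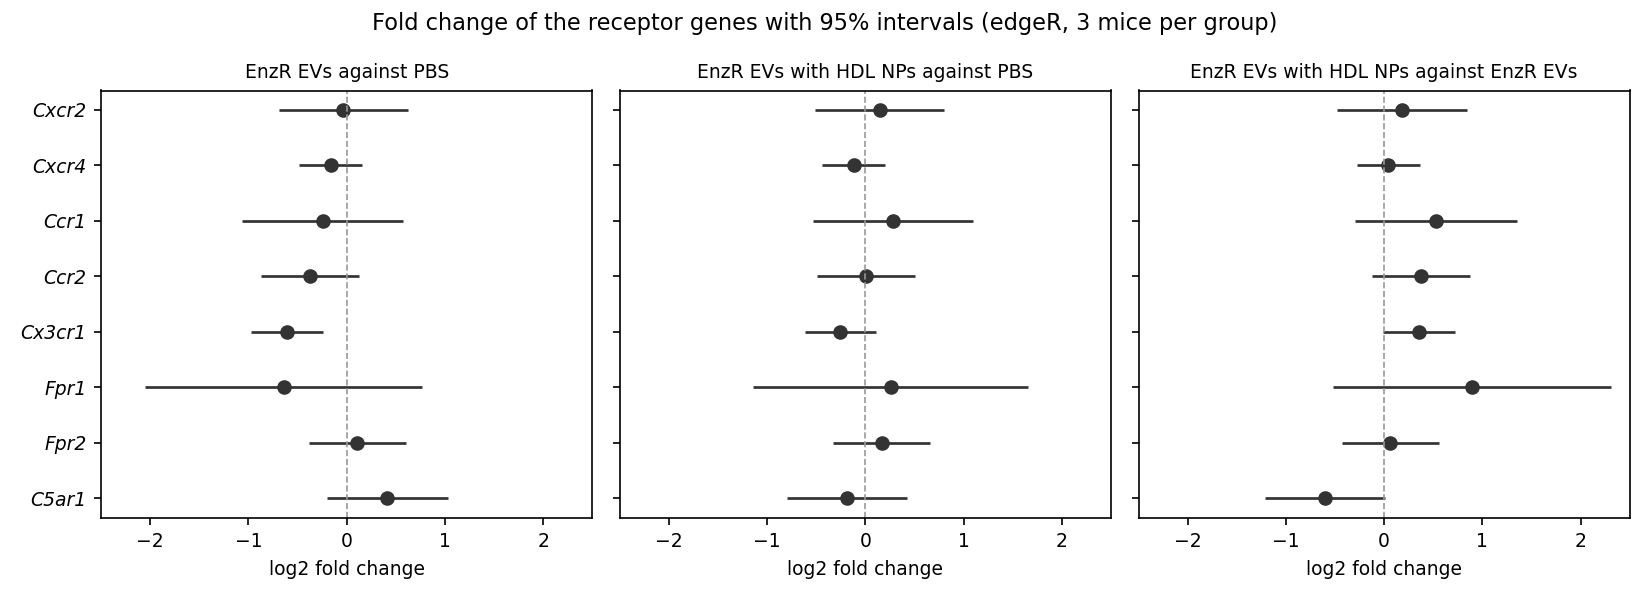
Log2 fold change (horizontal axes) of the 8 receptor genes in each comparison, with 95% intervals from edgeR as lines and 3 mice per group. The interval of Cx3cr1 in EnzR EVs against PBS, -0.98 to -0.24, is the only one of 24 that does not reach 0, and those of Fpr1 are widest.

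Over the list, 6 of the 8 genes had lower and 2 higher values in EnzR EVs than in PBS, with a median log2 fold change of -0.20 beside -0.03 for all tested genes. For EnzR EVs with HDL NPs against PBS 5 were higher and 3 lower, with a median of 0.08 beside -0.01. Between EnzR EVs with HDL NPs and EnzR EVs 7 were higher and 1, C5ar1, was lower, with a median of 0.27 beside 0.03. The comparisons share their groups, and without the 3 libraries that stood apart the sign was the opposite for 4 genes in the first (Cxcr2, Ccr1, Ccr2 and C5ar1), 2 in the next (Cxcr2 and Fpr1) and 5 in the last (Cxcr2, Cxcr4, Ccr1, Fpr1 and Fpr2). For EnzR EVs with HDL NPs against PBS, the values without the 3 libraries were -0.11 for Cxcr4, 0.05 for Ccr1, 0.06 for Ccr2, -0.14 for Fpr1 and -0.04 for C5ar1, beside -0.12, 0.28, 0.01, 0.26 and -0.19 with them, and Cxcr4 against EnzR EVs was -0.03 beside 0.04.

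Levels of different genes were compared per kb of exon, from the RefSeq-linked transcripts of GENCODE M21. In PBS mice the level per kb was 325 ± 35.5 CPM for Fpr2, 267 ± 15.3 CPM for Cxcr4, 188 ± 12.2 CPM for Ccr2, 175 ± 56.8 CPM for Cxcr2, 147 ± 80.8 CPM for Fpr1, 124 ± 38.2 CPM for Ccr1, 94.7 ± 18.1 CPM for C5ar1 and 17.5 ± 1.31 CPM for Cx3cr1 (SD, n = 3 mice). Fpr2 was above Cxcr4 in all 3 mice, as 288 to 359 lay above 251 to 281, and Cxcr4 was above the ranges of the genes after it. From Ccr2 to C5ar1 the range of each gene overlapped with that of the next, so the order of neighbours there is not set. Cx3cr1, at 16 to 18.4 CPM per kb, was below all the others. With the longest annotated transcript in place of the RefSeq exons Ccr2 moved from place 3 to place 6, with 98.2 CPM per kb, and Fpr2, Cxcr4, C5ar1 and Cx3cr1 kept their places.

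**Figure D5:**
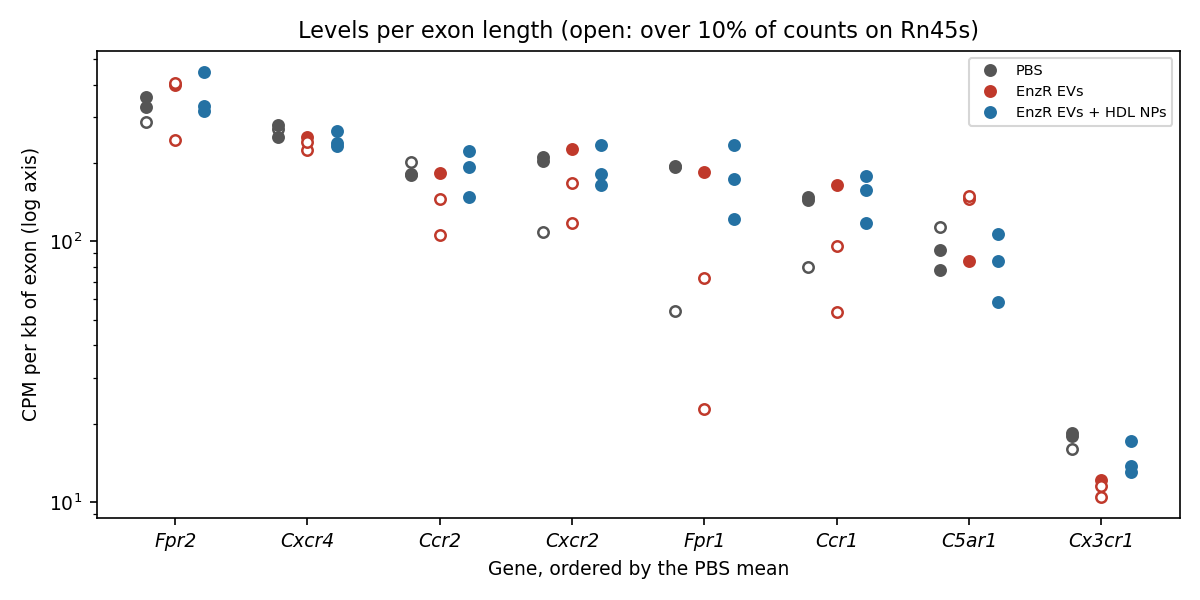
CPM per kb of exon (vertical axis, log scale) of the 8 receptor genes in each of the 9 mice, in the order of the PBS mean. Colours give the group and open symbols the 3 libraries with over 10% of counts on Rn45s. Fpr2 and Cxcr4 are highest, Cx3cr1 is lowest at 10.5 to 18.4 CPM per kb in all 9 mice, and Fpr1 spans 22.8 to 234 CPM per kb.

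For each receptor gene, tested genes with a similar log2 CPM over the 9 libraries were found by Pearson r, as a description, and up to 2 of the most similar are named. Fpr1 was most like Myl12b (r = 0.999) and Clec4a2 (r = 0.998), and Ccr1 was like Mpp1 (r = 0.996). As the 3 libraries that stood apart hold the lowest values of Fpr1 and Ccr1, r was taken again over the other 6, where it was 0.988 and 0.983 for Fpr1 and 0.963 for Ccr1. Since the similar genes were picked by r over all 9 libraries, r over a part of these libraries is no independent check. C5ar1 was most like Mark2 (r = 0.985) and Efhd2 (r = 0.982).

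Cxcr2 was most like Lins (r = 0.992) and Rab35 (r = 0.986). Cx3cr1 was most like Lima1 (r = 0.955) and Il10ra (r = 0.946), the latter a chain of the interleukin-10 receptor, and Fpr2 most like Arhgap27 (r = 0.964) and Snx14 (r = 0.954). Cxcr4, with the least variation to share, reached 0.913 with Mdp1 and 0.904 with Adap1. For Ccr2 the closest genes were Gm6251 (r = 0.974) and Snord65 (r = 0.969), both at 0 CPM in at least 1 library. Without the 2 libraries farthest from the median of each receptor gene, r lay between 0.872 and 0.994 for the pairs named.

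Of 21 ligand genes of the receptors 14 passed the filter on low counts. Of these edgeR called 0 in every comparison. At an unadjusted p under 0.05 it found 1 higher and 3 lower in EnzR EVs against PBS, 0 higher and 2 lower in EnzR EVs with HDL NPs against PBS, and 1 higher and 1 lower in EnzR EVs with HDL NPs against EnzR EVs. The medians were -0.36, -0.22 and 0.19, beside -0.03, -0.01 and 0.03 for all tested genes.

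Cxcl2, a ligand of Cxcr2 made by activated myeloid cells, was measured at 80.4, 62.7 and 59.4 CPM in PBS mice, 33.5, 55.4 and 21.6 CPM in EnzR EV mice and 31.2, 57.3 and 28.4 CPM in EnzR EV + HDL NP mice. All PBS mice were above the mice of both other groups, but PBS 3, at 59.4 CPM, was close to EnzR EV + HDL NP 2 and EnzR EV 2. The log2 fold change was -0.86 in EnzR EVs against PBS (standard error 0.36, adjusted p = 0.928 by edgeR) and -0.79 in EnzR EVs with HDL NPs against PBS (0.35, adjusted p = 1 by edgeR). Ppbp, a platelet chemokine for Cxcr2, ranged from 0.352 to 38.2 CPM and did not separate the groups.

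Ccl3, a ligand of Ccr1, was measured at 22.9, 23.8 and 24.6 CPM in PBS mice, 4.94, 14.7 and 5.56 CPM in EnzR EV mice and 17.4, 13.2 and 10.7 CPM in EnzR EV + HDL NP mice. It too was higher in all PBS mice than in all others, and EnzR EVs against PBS gave -1.38 on the log2 scale (adjusted p = 0.928 by edgeR, standard error 0.37). The lowest values were those of EnzR EV 1, with 9 counts, and EnzR EV 3, libraries that stood apart. Ccl6 and Ccl9, further ligands of Ccr1, gave -0.69 and -0.46 in EnzR EVs against PBS, with adjusted p of 0.928 by edgeR for both. Ccl9 was at 137, 130 and 132 CPM in PBS mice and 73.5, 127 and 87 CPM in EnzR EV mice, so the groups did not overlap, but EnzR EV 2 was close to the PBS mice and the lower values were those of EnzR EV 1 and EnzR EV 3, 2 of the libraries that stood apart. Ccl5 was at most 3.15 CPM.

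Cxcl12, the retention signal for Cxcr4, was present at 3.87, 32.7 and 55.3 CPM in PBS mice, 4.94, 19.9 and 37.1 CPM in EnzR EV mice and 19.5, 32.6 and 31.2 CPM in EnzR EV + HDL NP mice. The groups overlapped, and PBS 1 and EnzR EV 1 were far below the rest. Cxcl12 was 1 of 10 genes of stromal and endothelial cells, whose sum was 41 to 117 CPM, and the part of such cells in its values was not tested. Mif, a further ligand of Cxcr4, ranged from 3.46 to 15 CPM. Ccl2, the main ligand of Ccr2, was at most 3.51 CPM, and Cx3cl1, the ligand of Cx3cr1, had at most 3 counts in any library and was not tested.

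The ligands of the formyl peptide receptors ranged widely in level. Camp, the cathelicidin of neutrophil granules, lay between 3677 and 7877 CPM, and Anxa1, the gene of annexin A1, between 977 and 4783 CPM, both lowest in EnzR EV 1. Ctsg, the gene of cathepsin G, ranged from 37.5 to 148 CPM. Saa3, a serum amyloid A gene, had 4, 2 and 0 counts in PBS mice, 2, 37 and 23 in EnzR EV mice and 17, 7 and 10 in EnzR EV + HDL NP mice. With 2 counts, EnzR EV 1 was below the floor of 3 counts, so the order of the groups cannot be told for Saa3 (adjusted p = 0.928 by edgeR in EnzR EVs against PBS). Hc, which encodes complement C5, was at most 2.5 CPM.

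Of 37 other chemoattractant receptors 24 were tested and 0 called by edgeR in any comparison. At an unadjusted p under 0.05, 1 was higher and 2 were lower in EnzR EVs against PBS, 0 and 1 in EnzR EVs with HDL NPs against PBS, and 1 and 0 in EnzR EVs with HDL NPs against EnzR EVs, with medians of -0.09, -0.05 and 0.04. Cxcr1, the relative of Cxcr2, was the higher one, at 1.58, 1.67 and 2.17 CPM in PBS mice and 8.23, 3.78 and 5.67 CPM in EnzR EV mice, or 1.58 on the log2 scale (adjusted p = 0.928 by edgeR, standard error 0.51). These groups did not overlap, and the level was low, as 8.23 CPM in EnzR EV 1 stood beside 359 CPM of Cxcr2.

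S1pr1, the sphingosine-1-phosphate receptor through which lymphocytes leave tissues, was measured at 3.34, 5.52 and 6.18 CPM in PBS mice, 1.65, 3.09 and 1.06 CPM in EnzR EV mice and 3.94, 6.14 and 3.7 CPM in EnzR EV + HDL NP mice. All EnzR EV mice were below all others, with a log2 fold change of -1.28 against PBS (adjusted p = 0.928 by edgeR). However, EnzR EV 1 had 3 counts, which is the floor, and EnzR EV 3 had 9. Both are libraries that stood apart, and EnzR EV 2 was close to PBS 1, so the order of the groups is uncertain. For S1pr1 the adjusted p in EnzR EVs with HDL NPs against EnzR EVs was 0.461 by edgeR. Ccrl2, an atypical receptor that presents chemerin, gave -0.71 in EnzR EVs against PBS (adjusted p = 0.928 by edgeR). S1pr4 gave -0.30 and -0.37 in EnzR EVs with HDL NPs against PBS and against EnzR EVs, and its mice overlapped. Ccr7 had only 9, 5 and 18 counts in PBS mice and 5, 2 and 2 in EnzR EV + HDL NP mice, and no fold change is given. Ltb4r1, the leukotriene B4 receptor, was the most abundant of the list at 142 to 209 CPM.

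The signalling genes downstream of the receptors, 36 of 37 tested, stayed close to the background. EdgeR called 0 in any comparison, and at an unadjusted p under 0.05 it found 1, Rgs1, lower in EnzR EVs against PBS and 0 in both other comparisons. Their medians were -0.05, 0.01 and 0.08. Rgs1, which shortens signalling of inhibitory G proteins, was measured at 19.9, 30 and 35.9 CPM in PBS mice, 13.2, 20.5 and 12.2 CPM in EnzR EV mice and 24.7, 22.9 and 14.7 CPM in EnzR EV + HDL NP mice, with overlap between PBS 1 and EnzR EV 2 (log2 fold change -0.88, adjusted p = 0.928 by edgeR).

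For this list, the other chemoattractant receptors and the partners below, fold changes are given for genes picked by p. They come from the 3 genes with the smallest unadjusted p by edgeR in each comparison, and do not stand for the list as a whole. Pik3cg and Pik3r6, the catalytic and an adaptor subunit of the kinase that G proteins switch on, gave -0.39 and -0.35 in EnzR EVs against PBS. Pik3r6 gave 0.50, Gnb1 -0.38 and Adrbk2, a receptor kinase, 0.33 in EnzR EVs with HDL NPs against EnzR EVs. Plcb2 and Arrb2, a phospholipase and an arrestin, gave 0.24 and 0.21 in EnzR EVs with HDL NPs against PBS. None of these passed, with an adjusted p of at least 0.461 by edgeR.

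Of 19 partners in retention and release, all tested, edgeR called 0, and at an unadjusted p under 0.05 it found 1 higher in EnzR EVs with HDL NPs against EnzR EVs and 0 elsewhere. The medians were -0.14, 0.02 and -0.02. The 1 gene was Itga4, a subunit of the integrin VLA-4 that anchors cells to Vcam1, at 239, 349 and 311 CPM in EnzR EV mice and 396, 365 and 440 CPM in EnzR EV + HDL NP mice, beside 403, 326 and 321 CPM in PBS mice. The groups in that comparison did not overlap, and differed by 0.41 on the log2 scale (adjusted p = 0.461 by edgeR, standard error 0.18).

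Elane, the elastase that can cleave Cxcr4 and Cxcl12, gave -0.59 in EnzR EVs with HDL NPs against PBS and -0.63 against EnzR EVs (adjusted p = 1 and 0.461 by edgeR). The transcription factor genes Klf4 and Nr4a1, which act in monocytes, gave -0.46 and -0.35 in EnzR EVs against PBS. Their groups did not overlap there, as held for 7.96% of the tested genes. For Klf4 the groups nearly met, with 48.3 CPM in EnzR EV 1 and 48.5 CPM in PBS 2. Its highest value, 82.9 CPM, was that of PBS 1, a library that stood apart. Nr4a1 gave 0.48 in EnzR EVs with HDL NPs against EnzR EVs. Gfi1, a factor of granulocyte differentiation, gave 0.28 in EnzR EVs against PBS, while Irf8 and Klf4 gave -0.44 and -0.40 in EnzR EVs with HDL NPs against PBS, with no adjusted p below 0.461 by edgeR among these genes.

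Mature neutrophils carry Cxcr2, Fpr1, Fpr2, Ccr1 and C5ar1, and neutrophil genes were measured in the same libraries. Ltf and Ngp lead that list, and its sum is not a measure of mature neutrophils alone. The 9 neutrophil genes analysed here summed to 40423, 54577 and 48843 CPM in PBS mice, 27074, 55265 and 48963 CPM in EnzR EV mice and 41403, 60214 and 50277 CPM in EnzR EV + HDL NP mice, with Ltf the most abundant and none at 0. The sum was lowest in EnzR EV 1 and PBS 1, but EnzR EV 3 was near the middle. All 9 genes had lower values in EnzR EVs than in PBS, with a median log2 fold change of -0.16 beside -0.03 for all tested genes, and all 9 had higher values in EnzR EVs with HDL NPs than in EnzR EVs, with a median of 0.27 beside 0.03. Against PBS, EnzR EVs with HDL NPs had 6 higher and 3 lower, with a median of 0.17 beside -0.01. At an unadjusted p under 0.05 edgeR found 0 of the 9 in each comparison. The 7 genes of early granulocytes, led by Mpo, summed to 1762 to 2106 CPM in PBS mice and 2269 to 2347 CPM in EnzR EV mice. In EnzR EV + HDL NP mice the sums were 1128 to 1981 CPM, so that the 3 EnzR EV sums were the highest of the 9. Much of the sum in EnzR EV 1, a library that stood apart, was Mpo at 1673 CPM, above its level in all PBS mice. Elane, Ctsg, Cebpe and Ms4a3 were lower in EnzR EV 1 than in all PBS mice, and Prtn3 and Gfi1 lay within the PBS range. Of these 7 genes 5 had higher and 2 lower values in EnzR EVs than in PBS, with a median of 0.0978 and 0 at an unadjusted p under 0.05 by edgeR. For EnzR EVs with HDL NPs 5 were lower than in PBS, 1 of them at an unadjusted p under 0.05, with a median of -0.46, and 6 were lower than in EnzR EVs, 2 of them at an unadjusted p under 0.05, with a median of -0.32. The part of neutrophil maturation or content in the receptor values was not tested.

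Genes of other cells were measured to show what the selection carried along, as summed levels over the 9 libraries without a test of the sums. The lists summed to 1521 to 3562 CPM for eosinophils, 33.8 to 234 CPM for basophils and mast cells, 69.1 to 120 CPM for dendritic cells and 122 to 251 CPM for platelets and megakaryocytes. They summed to 34.8 to 87.3 CPM for NK and T cells, 9.29 to 34.5 CPM for B and plasma cells and 23.8 to 78.1 CPM for erythroid cells. Of 8 erythroid genes analysed here 3 globin genes had 0 counts in every library, so how globin reads were counted cannot be told. EdgeR called 0 genes of these lists in every comparison.

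The signs of these genes are given for every list. In EnzR EVs against PBS, lower values were found for 8 of 8 tested genes of B and plasma cells (median log2 fold change -0.998), 5 of 5 of erythroid cells (-0.80), 5 of 6 of basophils and mast cells (-0.62) and 6 of 7 of eosinophils (-0.33). They were found for 8 of 10 of platelets and megakaryocytes (-0.25), 6 of 9 of stromal and endothelial cells (-0.44), 5 of 9 of dendritic cells (-0.38) and 4 of 8 of NK and T cells (-0.16). EdgeR found 3 genes of B and plasma cells, 2 of erythroid cells and 1 of dendritic cells lower, and 1 of dendritic cells higher, at an unadjusted p under 0.05. Cx3cr1 was lower in the same comparison, and the part of such cells in its values was not tested.

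Against PBS, the EnzR EV + HDL NP mice had lower values for 8 of 8 genes of B and plasma cells (-0.84), 5 of 5 of erythroid cells (-0.60), 6 of 6 of basophils and mast cells (-0.48) and 8 of 8 of NK and T cells (-0.33). The same held for 9 of 10 of platelets and megakaryocytes (-0.60), 7 of 9 of dendritic cells (-0.29), 7 of 9 of stromal and endothelial cells (-0.205) and 4 of 7 of eosinophils (-0.0448). EdgeR found 1 gene each of B and plasma cells, NK and T cells and dendritic cells lower at an unadjusted p under 0.05. Of the macrophage genes 10 of 10 were lower (-0.49), 2 of them at an unadjusted p under 0.05.

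Against EnzR EVs, the same mice had lower values for 0 of 5 genes of erythroid cells (0.175), 1 of 7 of eosinophils (0.41), 2 of 6 of basophils and mast cells (0.20), 3 of 8 of B and plasma cells (0.30) and 3 of 9 of stromal and endothelial cells (0.225). Lower values were also found for 4 of 10 of platelets and megakaryocytes (0.125), 4 of 9 of dendritic cells (0.0153) and 4 of 8 of NK and T cells (-0.12), with 2 genes of NK and T cells lower at an unadjusted p under 0.05 by edgeR. Of the macrophage genes 2 of 10 were lower and 8 higher (0.31), 1 of them lower at an unadjusted p under 0.05. Nonclassical monocyte genes had 5 of 7 higher against PBS (0.13) and 3 of 7 higher against EnzR EVs (-0.0207), 1 of the latter list lower at an unadjusted p under 0.05.

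Classical monocyte genes had lower values for 7 of 10 in EnzR EVs against PBS (-0.17), 6 of 10 with HDL NPs against PBS (-0.0718) and 2 of 10 with HDL NPs against EnzR EVs (0.0958). For the CD11b myeloid genes these were 4 of 7 (-0.0983), 4 of 7 (-0.0274) and 2 of 7 (0.11). EdgeR found, at an unadjusted p under 0.05, 1 classical monocyte gene higher with HDL NPs against PBS and 1 lower with HDL NPs against EnzR EVs. In that last comparison it found 1 CD11b myeloid gene higher and 1 lower.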

How the data were processed

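The values used are counts of reads per gene, which the authors made and deposited as 1 table per library. The processing notes of the submitters name cutadapt 1.13, STAR on mm10 and HTSeq 0.6.1p1 with a UCSC annotation, on single-end reads of 75 bases. The samples were grouped by their labels into PBS, EnzR EV and EnzR EV + HDL NP, 3 mice each, and all 9 libraries and all 3 comparisons were used. The 8 receptor genes were named by symbol, and the members and lists were chosen with earlier results of these data known. Lists by symbol covered ligands, other chemoattractant receptors, receptor signalling, retention and release partners, and markers of cell types and of immediate early genes.

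Here, genes were filtered with filterByExpr, which left 12553 of 23337, scaled by TMM and tested with the quasi-likelihood F-test of edgeR 4.0.16 in R 4.3.3, robust, in 1 fit of the 3 groups. Adjusted p-values are Benjamini-Hochberg values over 12553 genes, with a threshold of 0.05. Exact permutation tests used log2 CPM with a prior count of 2. Intervals of 95% come from the standard error of the fit. DESeq2 1.42.0 and limma 3.58.1 were run as alternatives, beside other scalings, filters and left-out libraries, and the scripts were tested on simulated data. The totals of 2575776 to 18110561 counts put the floor of 3 counts at 0.16 to 1.65 CPM. Mice of different groups share a replicate number. Deviations from the group means correlated between same-numbered PBS and EnzR EV mice at 0.473, 0.492 and 0.131. All lie above 0.1, a fixed limit past which such mice were also compared pair by pair. Different-numbered mice reached 0.429 (PBS 3 with EnzR EV 2) and 0.156 (PBS 2 with EnzR EV 3), above the 0.131 of a same-numbered pair. PBS 1 and EnzR EV 1 are both libraries that stood apart, and the labels give no litter or batch. The main fit and the exact tests therefore used no pairing, and the fit with the number as a block was an alternative run. Among pairs of libraries within a group, the most similar, PBS 2 and PBS 3, differed by more than sampling noise, with a chi-square per gene of 4.48. No sample was left out of the fit.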

Additional observations from a re-analysis of the deposited data

How the results depend on the processing

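Of 24 log2 fold changes of receptor genes, 9 kept their direction under all 21 alternative settings, and of 504 values under these settings 460 kept both direction and side of the threshold, 41 had the opposite sign and 3 passed the threshold. The cause was not tested. In EnzR EVs against PBS the genes called, 0 by edgeR, were 8 by DESeq2, 1990 by voom with quality weights, 1 with no filter, 1 with the replicate block, 5 without PBS 1 and EnzR EV 1, and 10 without the 3 libraries with over 10% Rn45s, a setting added after seeing the data. Quality weights called 3 receptor genes there, Cx3cr1 (-0.65), Fpr1 (-1.28) and C5ar1 (0.70). Fpr2 was -0.0356 with library totals only, and without the 3 libraries Cxcr2 was 0.13, Ccr1 0.17, Ccr2 0.0281 and C5ar1 -0.00899. In EnzR EVs with HDL NPs against PBS DESeq2 called 7 and quality weights 10 genes. Ccr2 was -0.0165 by voom and -0.00499 with the replicate block, and with quality weights Cxcr2 was -0.0175 and Fpr1 -0.0323. Cxcr2 was -0.10 and Fpr1 -0.14 both without PBS 1 and EnzR EV 1 and without the 3 libraries. In EnzR EVs with HDL NPs against EnzR EVs quality weights called 653 genes, and 1 gene each was called by DESeq2, with only the 6 libraries compared, without PBS 1 and EnzR EV 1 and without the 3 libraries. Fpr2 was -0.0452 with quality weights. Without PBS 1 and EnzR EV 1, Cxcr2 was -0.0313, Cxcr4 -0.00533 and Fpr2 -0.14, and without the 3 libraries Cxcr2 was -0.23, Cxcr4 -0.0343, Ccr1 -0.12, Fpr1 -0.0659 and Fpr2 -0.13. Leaving out 1 replicate at a time gave 0 to 2 genes called in EnzR EVs against PBS, and -0.28 to 0.18 for Cxcr2, -0.69 to 0.0713 for Ccr1, -0.0173 to 0.31 for Fpr2, -1.56 to -0.20 for Fpr1, 0.265 to 0.66 for C5ar1 and -0.55 to -0.19 for Ccr2. For EnzR EVs with HDL NPs against PBS it gave -0.10 to 0.32 for Cxcr2, -0.13 to 0.15 for Ccr2, -0.14 to 0.52 for Fpr1, -0.0092 to 0.27 for Fpr2 and -0.41 to 0.0192 for C5ar1. Between the last groups, EnzR EVs with HDL NPs and EnzR EVs, it gave 0 to 1 genes called, and -0.0307 to 0.42 for Cxcr2, -0.0425 to 0.0627 for Cxcr4, -0.14 to 0.19 for Fpr2, 0.45 to 1.82 for Fpr1, 0.21 to 0.98 for Ccr1, 0.19 to 0.56 for Ccr2 and -0.85 to -0.415 for C5ar1. The replicate block changed no call of a receptor gene. Same-numbered mice of the EnzR EV + HDL NP group correlated with PBS mice at 0.0609, 0.293 and -0.175 and with EnzR EV mice at -0.0363, 0.209 and 0.121, so there they share only a number. The study has 3 mice per group, 1 harvest time and no HDL NP group without vesicles, and the counts give no protein, surface level or number of cells. EnzR EV 1 has 2575776 counts, where the floor of 3 counts is 1.65 CPM.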

Other observations

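Immediate early genes respond within minutes to stimulation or handling of cells. By edgeR, 7 of 8 had lower values and 1 a higher value in EnzR EVs than in PBS, and 8 had lower values in EnzR EVs with HDL NPs than in PBS, with 4 at an unadjusted p under 0.05 in each and 0 after adjustment. The medians were -0.43 and -0.55, beside -0.03 and -0.01 for all tested genes. Their sum, led by Fos, was 3469, 2885 and 2851 CPM in PBS mice, 2797, 2208 and 2187 CPM in EnzR EV mice and 1589, 2503 and 2276 CPM in EnzR EV + HDL NP mice. The 3 PBS sums were the highest of the 9. Single genes differed from this, as Ier2 was at 887 CPM in EnzR EV 1 and at 564, 211 and 188 CPM in PBS mice.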
